A study of Homo sapiens with 12 samples.

Results

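Described here are 10 genes of the TNF superfamily, of 23284 gene symbols listed for each library: the ligand genes CD70, TNFSF9, TNFSF10 and TNFSF15 and the receptor genes TNFRSF11B, TNFRSF12A, TNFRSF21, TNFRSF1A, CD40 and TNFRSF9. They were taken by symbol. They had been picked from these same libraries for their levels across populations, doses and times, so their values are a description and carry no test. RNA sequencing was performed on PANC-1, a human pancreatic cancer cell line, and the 12 libraries fall into 6 groups of 2. Degron (++) and degron (−) cells were each taken unirradiated (0 Gy) at 48 h, irradiated (4 Gy) at 30 h and irradiated at 48 h. All cells carry a ZsGreen reporter fused to the degron of ornithine decarboxylase, introduced by retrovirus and kept under G418 selection, so that cells with low proteasome activity fluoresce. Degron (−) is the infected line, in which few cells were ZsGreen positive, and degron (++) is the brightest fraction of a line enriched by repeated sorting and culture. Irradiation was with gamma rays from cesium-137. The starting point of these hours is not in the labels, and no unirradiated library at 30 h was analysed here. The 6 degron (−) libraries are named ZsGreen– in their titles and d+ in another label field. Nor do the labels say whether the 2 libraries of a group came from separate cultures, so the p-values below measure only the spread between these samples, which may be technical.

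TNF superfamily ligands are membrane-bound or shed trimers that bind cysteine-rich receptors on the same or a neighbouring cell. Receptors with a death domain, such as TNFRSF1A, TNFRSF21, FAS, TNFRSF10A and TNFRSF10B, can recruit caspase-activating adaptors, and most receptors recruit TRAF proteins that lead to NF-κB. Decoy receptors, such as the secreted osteoprotegerin encoded by TNFRSF11B, bind ligands without passing a signal on. In pancreatic and other carcinomas the family is known for its part in apoptosis, inflammation and the exchange with immune cells.

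The gene order along the chromosomes is relevant to the 2 member ligands on chromosome 19, where TNFSF9, CD70 and TNFSF14 follow one another. Promoter windows from RefSeq were used for 6 of the 10 genes, and windows of the others were not examined. Shown are the 250 bases before the start of TNFSF9 and TNFSF14, which flank CD70, and of TNFSF15 and TNFRSF9, members at low level that held an AP-1 match, all in build GRCh38.p14 and 5′ to 3′ on the gene's own strand. Capitals mark matches on either strand to the AP-1 motif TGACTCA, the NF-κB motif (GGG, any 2 bases, TTTCC), the GC box GGGCGG and the TATA motif TATAAA.
TNFSF9: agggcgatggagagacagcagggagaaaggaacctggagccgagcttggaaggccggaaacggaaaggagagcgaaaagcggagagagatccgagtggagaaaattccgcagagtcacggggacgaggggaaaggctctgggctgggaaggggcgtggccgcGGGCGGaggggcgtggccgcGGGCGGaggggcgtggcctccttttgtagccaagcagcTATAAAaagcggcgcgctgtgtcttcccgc
TNFSF14: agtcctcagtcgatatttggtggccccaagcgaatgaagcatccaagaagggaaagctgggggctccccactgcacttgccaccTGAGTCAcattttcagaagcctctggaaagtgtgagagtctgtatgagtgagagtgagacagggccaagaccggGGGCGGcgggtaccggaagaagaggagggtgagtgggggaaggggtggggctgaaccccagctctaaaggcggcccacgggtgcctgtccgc
TNFSF15: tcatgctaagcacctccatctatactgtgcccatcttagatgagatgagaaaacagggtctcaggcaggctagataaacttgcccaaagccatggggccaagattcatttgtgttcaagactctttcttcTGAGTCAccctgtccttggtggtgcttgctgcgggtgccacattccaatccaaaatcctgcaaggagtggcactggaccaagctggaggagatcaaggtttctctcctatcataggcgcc
TNFRSF9: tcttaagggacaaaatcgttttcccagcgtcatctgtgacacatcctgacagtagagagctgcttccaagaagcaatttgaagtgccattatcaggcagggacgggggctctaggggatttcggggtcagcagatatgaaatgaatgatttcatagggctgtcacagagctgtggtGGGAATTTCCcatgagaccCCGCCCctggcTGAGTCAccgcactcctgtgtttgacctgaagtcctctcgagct
The TNFSF9 window lies at chr19:6530776-6531025 on the plus strand, and the windows of TNFSF14 at chr19:6670161-6670410, TNFSF15 at chr9:114792531-114792780 and TNFRSF9 at chr1:7940840-7941089 lie on the minus strand. The TNFRSF9 window held the only NF-κB match among the 6 matched members, 74 to 65 bases before the start, with a GC box and an AP-1 match nearer the start and overlapping neither. Of all 35116 windows of the same length, 1.73% held the NF-κB motif, 4.20% the AP-1 motif, 42.6% the GC box and 10.7% the TATA motif. TNFSF9 held 2 GC boxes, a TATA match 30 to 25 bases before the start and 23 CG dinucleotides, against 9 in TNFSF14, 7 in TNFRSF9, 2 in TNFSF15 and a median of 11 over all windows. A match of letters is not a binding site, and the absence of a match says only that these letters are not in the window.

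Expression is given as FPKM, fragments per kilobase of transcript scaled to the mapped fragments, a per-length measure on which genes can be compared. Read counts were not used here and the sequencing depth is unknown. The relative depth, read from the steps of the lowest values, spanned 0.859 to 1.17 over the libraries. The FPKM of a library summed to between 829654 and 916877 in degron (++) and between 707273 and 763064 in degron (−). All 5 epithelial markers were expressed in every library. Of 12 immune cell markers 10 stayed under 1 FPKM in every library, with PTPRC and CD3E at or near 0. CD68, the lysosomal marker that took most of the sum in degron (−), was at 2.91 to 4.62 FPKM in degron (++) and 124 to 165 FPKM in degron (−). CD14, the other marker that reached 1 FPKM, stood in the opposite order, at 1.45 to 1.92 FPKM in degron (++) and 0.187 to 1.02 FPKM in degron (−). The immune sums were 4.50 to 6.47 and 125 to 166 FPKM. All 5 endothelial markers stayed under 1 FPKM. The 6 fibroblast markers summed to 14.4 to 25.4 FPKM in degron (++), mostly LUM, and to 40.9 to 56.9 FPKM in degron (−), mostly COL1A1. CDKN2A, CDKN2B and MTAP, neighbours on the short arm of chromosome 9 that are known as deleted in PANC-1, were expressed in every library. CDKN2A was at 100.4 to 112 FPKM in degron (++) and at 11.04 to 21.1 FPKM in degron (−). Labels and data therefore disagree for these genes, and the part of all these differences in the values below was not tested.

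Among the ligands, CD70 showed the widest contrast between the populations. CD70, the ligand of the lymphocyte receptor CD27, was at 113 and 111 FPKM in the 2 unirradiated degron (−) libraries. Irradiated degron (−) cells had 119 and 120 FPKM at 30 h and 122 and 120 FPKM at 48 h. In degron (++) it was listed at 0 in 4 libraries, at 0.117 FPKM in the unirradiated replicate 2 and at 0.118 FPKM in the irradiated replicate 2 at 48 h. The populations did not overlap at any dose or time, and no fold is given because one side was mostly listed at 0. On the log2(FPKM + 1) scale, which understates differences of genes at low level, degron (++) minus degron (−) was −6.74 in unirradiated cells, −6.91 in irradiated cells at 30 h and −6.85 at 48 h. The standard error was 0.07, from 2 libraries a group. Within degron (−) the irradiated level at 48 h was 1.08 times the unirradiated level. In bulk RNA, fewer cells that express a gene and less RNA per cell cannot be told apart, for this gene and all that follow.

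TNFSF9, the ligand of the costimulatory receptor encoded by TNFRSF9, lies beside CD70 and also stood higher in degron (−). The degron (−) libraries had 3.90 and 3.87 FPKM unirradiated, and irradiated 6.12 and 6.45 FPKM (30 h) and 6.24 and 5.78 FPKM (48 h). Both irradiated groups lay above the unirradiated libraries. Those of degron (++) had 2.90 and 2.54 FPKM unirradiated, and irradiated 2.85 and 2.43 FPKM (30 h) and 2.07 and 2.45 FPKM (48 h). All 6 degron (++) libraries lay below all 6 degron (−) libraries. Irradiated and unirradiated libraries at 48 h lay in opposite orders in the populations. The log2 difference between the populations was −0.40 ± 0.09 (SE) in unirradiated cells, −1.01 in irradiated cells at 30 h and −1.11 at 48 h. TNFSF14, the gene on the other side of CD70, named after its values were seen, was at 0.432 to 0.851 FPKM in degron (++) and at 0.064 to 0.267 FPKM in degron (−), the opposite order to its neighbours.

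TNFSF10 and TNFSF15 stood higher in degron (++), both at a few FPKM. TNFSF10, the death ligand TRAIL, was at 3.17 and 1.98 FPKM in unirradiated degron (++) cells, and in irradiated ones at 1.38 and 1.46 FPKM (30 h) and at 1.30 and 1.22 FPKM (48 h). In degron (−) it was at 0.098 to 0.271 FPKM in all 6 libraries. The unirradiated degron (++) libraries lay apart from each other but above all 4 irradiated ones, and the populations did not overlap. The log2 difference between the populations was 1.52 ± 0.15, 1.03 and 0.88 in the same order of conditions. TNFSF15, a ligand known from vessel-lining cells, was at 2.71 and 2.51 FPKM in unirradiated degron (++) cells, and in irradiated ones at 4.60 and 4.57 FPKM (30 h) and at 4.92 and 4.13 FPKM (48 h). Degron (−) cells had 0.439 and 0.398, then 0.670 and 0.591, then 1.18 and 1.44 FPKM in the same order. In both populations every irradiated library lay above the unirradiated ones. At 48 h the mean at 4 Gy was 1.73 times that at 0 Gy in degron (++) and 3.13 times in degron (−), where the starting level was under 1 FPKM.

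TNFRSF11B, the secreted decoy osteoprotegerin that binds the osteoclast ligand TNFSF11 and TNFSF10, had the widest difference towards degron (++) of the tested family genes on the log2(FPKM + 1) scale. It was at 94.4 and 87.6 FPKM in unirradiated degron (++) cells, and in irradiated ones at 112 and 113 FPKM (30 h) and at 134 and 142 FPKM (48 h). Degron (−) cells had 5.12 and 3.83, then 5.20 and 7.28, then 11.8 and 14.6 FPKM. Within each population the 2 libraries at 48 h and 4 Gy lay highest, the 2 unirradiated ones lowest, and the groups did not overlap. The mean in degron (++) was 20.3 times that in degron (−) in unirradiated cells, 17.98 times in irradiated cells at 30 h and 10.5 times at 48 h. On the log2(FPKM + 1) scale these differences were 4.08 ± 0.15, 3.98 and 3.30. The level at 4 Gy was 1.52 times that at 0 Gy in degron (++) at 48 h and 2.94 times in degron (−), a difference of log2 responses of −0.78 ± 0.22.

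**Figure D1:**
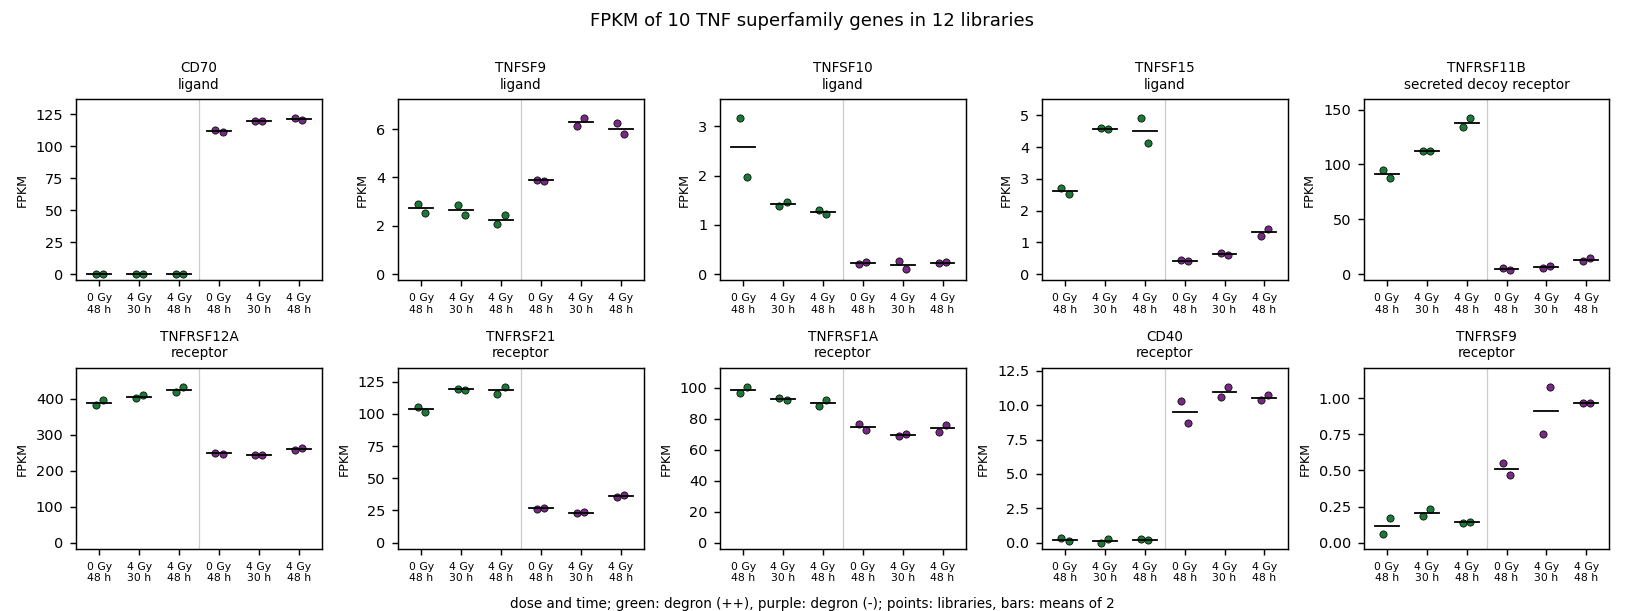
FPKM (y axis, linear, each panel on its own scale from 0) of the 10 genes in the 12 libraries; points are libraries, bars are means of 2, with 3 degron (++) groups in green on the left and 3 degron (−) groups in purple on the right of each panel. CD70 and CD40 lie at or near 0 in all degron (++) libraries, TNFRSF11B stands highest in both populations in irradiated cells at 48 h, and no panel shows overlap between the populations.

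TNFRSF12A, TNFRSF21 and TNFRSF1A, which pass signals on, differed between the populations by less than TNFRSF11B on the log2 scale. TNFRSF12A, the receptor of the cytokine TWEAK (TNFSF12), was the most abundant receptor of the family in both populations. It was at 381 and 396 FPKM in unirradiated degron (++) cells, and in irradiated ones at 402 and 409 FPKM (30 h) and at 417 and 432 FPKM (48 h), against 243 to 263 FPKM over the 6 degron (−) libraries. The ratio of means lay between 1.57 and 1.67 in the 3 conditions. TNFRSF21, a death domain receptor also called DR6, was at 106 and 102, then at 120 and 119, then at 115 and 121 FPKM in degron (++). In degron (−) it was at 26.2 and 27.0 FPKM unirradiated, and irradiated at 22.9 and 23.6 FPKM (30 h) and at 35.6 and 36.9 FPKM (48 h). These 3 degron (−) groups did not overlap. The ratio of means was 3.89 in unirradiated cells, 5.12 in irradiated cells at 30 h and 3.26 at 48 h.

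TNFRSF1A, the widely expressed receptor of TNF, differed least on the log2 scale among the 5 of the 6 described receptors that passed the filter. It spanned 88.1 to 101 FPKM in degron (++) and 68.7 to 76.5 FPKM in degron (−), without overlap. The log2 difference was 0.40 ± 0.04, 0.41 and 0.29. When each library was rescaled to the same sum, the difference in irradiated cells at 48 h was 0.03. Within degron (++) the irradiated libraries at 48 h, at 88.1 and 92.5 FPKM, lay below the unirradiated ones at 96.6 and 101 FPKM, while in degron (−) they overlapped.

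CD40 and TNFRSF9, both known as costimulatory receptors of immune cells, stood higher in degron (−). In degron (−) CD40 was at 10.3 and 8.73 FPKM unirradiated, and irradiated at 10.6 and 11.3 FPKM (30 h) and at 10.4 and 10.7 FPKM (48 h). In degron (++) no library was over 0.313 FPKM and 1 was listed at 0. At 48 h the mean in degron (−) was 43.8 times that in degron (++) in unirradiated and 47.1 times in irradiated cells, with values in degron (++) too low to be exact. TNFRSF9 did not pass the filter for testing, at least 1 FPKM in at least 2 libraries. It was at 0.555 and 0.472 FPKM in unirradiated degron (−) cells, and in irradiated ones at 0.750 and 1.08 FPKM (30 h) and at 0.970 and 0.966 FPKM (48 h). In degron (++) it was at 0.058 to 0.233 FPKM. All 4 irradiated degron (−) libraries lay above both unirradiated ones, the order also seen for its ligand TNFSF9, whose values are given above.

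The levels of the ligands as a whole turned on CD70. The 18 ligand genes summed to 21.6 to 25.1 FPKM in degron (++) and to 134 to 150 FPKM in degron (−), where CD70 made up 81.4% to 82.8% of the sum. Without CD70 the degron (−) sums were 23.2 to 27.9 FPKM. In degron (++) LTB, TNFSF13, TNFSF18 and TNFSF15 came first by mean, at 4.99, 4.33, 4.24 and 3.90 FPKM, and their ranges over the 6 libraries overlapped, so that their order is not settled. TNFSF9 followed at 2.54 FPKM, overlapping with TNFSF15, TNFSF18 and TNFSF10, and TNFSF10 at 1.75 FPKM. In degron (−) CD70 at 118 FPKM was followed by TNFSF12 at 10.8 and TNFSF9 at 5.39 FPKM without overlap.

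The 29 receptor genes summed to 1046 to 1162 FPKM in degron (++) and to 474 to 578 FPKM in degron (−). In degron (++) the order was TNFRSF12A at 406, the decoy TNFRSF6B at 185, TNFRSF11B and TNFRSF21 both at 114, TNFRSF1A at 93.9 and LTBR at 83.1 FPKM. TNFRSF11B overlapped with both TNFRSF21 and TNFRSF1A. In degron (−) TNFRSF12A at 250.2 FPKM was followed by TNFRSF1A at 72.6, TNFRSF6B at 55.3, TNFRSF21 at 28.7, TNFRSF10B at 23.8 and LTBR at 15.6 FPKM. TNFRSF1A overlapped with TNFRSF6B, and TNFRSF21, TNFRSF10B and LTBR overlapped with one another. The decoy receptors TNFRSF11B, TNFRSF6B, TNFRSF10C and TNFRSF10D together held 27.4% to 28.5% of the receptor FPKM in degron (++) and 10.9% to 16.4% in degron (−).

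The known partners of several members were at or near 0. CD27, the receptor of CD70, stayed at or under 0.327 FPKM in all 12 libraries. TNFSF11, the ligand of TNFRSF11B, and CD40LG, the ligand of CD40, were listed at 0 in all 12. TNF, the ligand of TNFRSF1A, reached 0.057 FPKM in degron (++) and 0.432 FPKM in degron (−). These 4 were named after their values were seen. TNFSF12, the ligand of TNFRSF12A, was listed at 0 in 5 degron (++) libraries and at 0.072 FPKM in the other. In degron (−) it was at 8.68 to 11.98 FPKM, the order opposite to that of its receptor. TNFRSF25, a receptor of TNFSF15, spanned 3.74 to 5.27 FPKM in degron (++) and 3.29 to 4.49 FPKM in degron (−), with overlap. TNFRSF10A and TNFRSF10B, the death receptors of TNFSF10, were present in both populations and higher in degron (++), as its own level was.

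The 37 other family genes are what was left of the family lists without the 10. These lists were chosen with earlier results of these data known. Testing was with limma on log2(FPKM + 1) and Benjamini-Hochberg adjustment over all 12946 genes that passed the filter, 17 of the 37 among them. Of all 47 family genes 21 did not pass, none of them over 1.08 FPKM, and CD40LG, TNFSF11 and TNFRSF17 were listed at 0 throughout. In unirradiated cells at 48 h, 11 of the 17 were higher in degron (++) and 3 were lower at an adjusted p under 0.05, where 37.6% of all genes tested were called higher and 40.2% lower. In irradiated cells at 30 h, 12 were higher and 4 lower, beside 38.3% and 40.8% of all genes. In irradiated cells at 48 h, 10 were higher and 4 lower, beside 37.1% and 39.6%. The median log2 difference of the 17 was 0.65, 0.64 and 0.49, that of all genes −0.02, −0.02 and −0.01. Rescaling each library to the same sum moved the median of all genes to −0.215, −0.273 and −0.248. The share of calls that were higher went from 48.3% to 35.9%, from 48.5% to 33.3% and from 48.3% to 31.7%, and 14, 14 and 13 family genes were called.

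The receptors called higher in degron (++) at all 3 conditions were LTBR, TNFRSF6B, FAS, TNFRSF10A, TNFRSF10B, TNFRSF10D, TNFRSF1B and RELT. LTBR, the lymphotoxin receptor, was at 82.6 and 83.6 FPKM in unirradiated degron (++) and at 15.8 and 13.6 FPKM in degron (−), a log2 difference of 2.42 ± 0.08 (adjusted p = 1.04e-08). TNFRSF6B, a soluble decoy for FASLG and TNFSF15, was at 183 and 197 against 60.9 and 50.1 FPKM (1.76 ± 0.09, adjusted p = 1.28e-07 in limma). It neighbours RTEL1, and reads of a joint transcript could not be split. The death receptors had differences of 1.17 ± 0.11 for FAS, 1.06 ± 0.08 for TNFRSF10A and 0.65 ± 0.04 for TNFRSF10B, and TNFRSF10D, a decoy for TNFSF10, of 0.75 ± 0.07. TNFRSF1B, the second receptor of TNF, differed by 0.82 ± 0.09, and RELT, a receptor of lymphoid tissue, by 0.57 ± 0.06.

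Lower in degron (++) at all 3 conditions were the ligand TNFSF12 (−3.64 ± 0.10 at 0 Gy, adjusted p = 2.90e-09 in limma), TNFRSF11A, the receptor known as RANK (−1.36 ± 0.11), and TNFRSF18 (−0.96 ± 0.17). TNFSF12 and TNFRSF18 passed the filter through degron (−) alone, with at most 0.072 and 0.453 FPKM in degron (++). TNFRSF18 was at 1.45 FPKM at most, and its call in irradiated cells at 48 h was lost without either degron (++) library or without degron (−) replicate 1 (adjusted p up to 0.82 over all alternatives, the most under quantile normalization). That call was also lost at a pseudocount of 0.1 (adjusted p = 0.0704 in limma), and the call at 30 h under quantile normalization (adjusted p = 0.349). TNFSF12 and TNFSF13 are neighbours whose reads could be split between them. TNFSF18, the ligand of TNFRSF18, was higher in degron (++) at all 3 conditions, by 1.98 ± 0.18, 2.13 and 2.38. It passed the filter through degron (++) alone, with at most 0.284 FPKM in degron (−). LTB, a lymphotoxin subunit, was called higher in unirradiated cells (0.66 ± 0.13) and in irradiated cells at 30 h (0.55) but not at 48 h (−0.02). TNFRSF14, the receptor of TNFSF14, was called lower at 30 h (−0.66) and 48 h (−0.68) after irradiation, with −0.23 in unirradiated cells. Its dose response at 48 h was not called as different between the populations. No such comparison was made at 30 h. The call at 30 h was lost without replicate 2 of either population (adjusted p up to 0.0827). TNFRSF19 was called higher in unirradiated cells (0.56 ± 0.15), lost without degron (++) replicate 1 (adjusted p up to 0.0566), and in irradiated cells at 30 h (0.46), lost without replicate 2 of either population (up to 0.132), on rescaling (0.115) and with only the compared libraries (0.0592). TNFSF13 was called higher in irradiated cells at 30 h (0.28), lost without degron (++) replicate 2 or degron (−) replicate 1, and at 48 h (0.21), lost without either degron (++) library or degron (−) replicate 2, and on rescaling both were lost (adjusted p up to 0.568 and 0.996). At 48 h the call of TNFSF13 was also lost at a pseudocount of 0.1 and with all genes above 0 tested. It was lost too with a block for the replicate number and with only the compared libraries. TNFRSF25 was not called in any condition (0.29 ± 0.14 at 0 Gy, adjusted p = 0.0781 in limma).

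**Figure D2:**
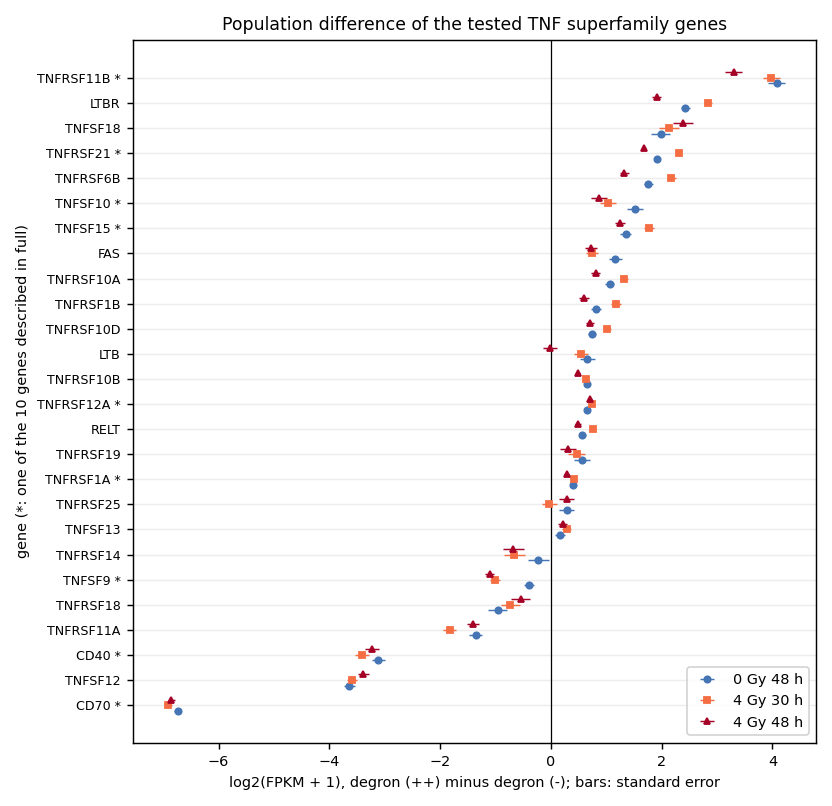
Differences of log2(FPKM + 1), degron (++) minus degron (−), of the 26 family genes that passed the filter (y axis, ordered by the unirradiated value), in unirradiated cells at 48 h (circles) and in irradiated cells at 30 h (squares) and 48 h (triangles), with standard errors. An asterisk marks the genes described in full, which carry no test; CD70 lies furthest to the left and TNFRSF11B furthest to the right.

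Counted over libraries, all 6 degron (++) libraries lay above all 6 degron (−) libraries for 10 of the 17 other family genes and below them for 3, against 34.1% and 37.2% of all genes tested. Of the 9 members that passed the filter 6 lay above and 3 below, a count that the choice of the members used and from which nothing is read.

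Relative to degron (++) at the same dose and time, several family genes in degron (−) followed the order of CDKN2A, CDKN2B and MTAP. The median of the latter was 16.2% of degron (++) in unirradiated cells, 11.5% in irradiated cells at 30 h and 19.3% at 48 h. TNFRSF21 was at 25.7%, 19.5% and 30.7% of its degron (++) level, LTBR at 17.7%, 13.0% and 25.9%, TNFRSF6B at 29.2%, 21.7% and 39.6%, and TNFSF15 at 16.0%, 13.8% and 29.0%. TNFRSF11B was at 4.92%, 5.56% and 9.54%, so that its lowest group was the unirradiated one. This order is one of percentages, and FPKM within degron (−) did not follow it for every gene. TNFSF15 was lowest there in unirradiated cells (0.439 and 0.398 FPKM), below irradiated cells at 30 h (0.670 and 0.591 FPKM). By percentage, of the 16 tested family genes higher in all degron (++) libraries 9 had the same order of the 3 groups as the chromosome 9 genes, and 15 were highest in irradiated cells at 48 h. Of these 16, 6 belong to the 10 genes picked from these data. The same counts were not made over all genes, so nothing particular to the family is read from them. The part of this shared order in the responses to dose and time was not tested.

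**Figure D3:**
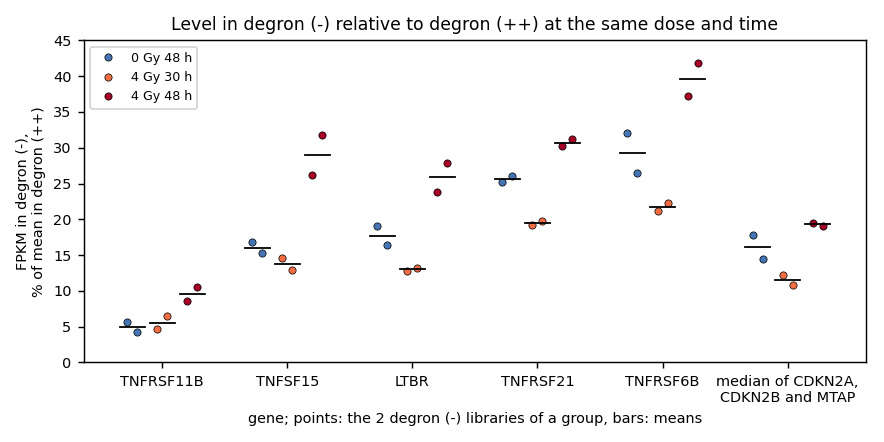
FPKM in each degron (−) library as a percentage of the mean in degron (++) at the same dose and time (y axis, linear from 0), for 5 family genes and the median of CDKN2A, CDKN2B and MTAP; points are the 2 libraries of a group, bars their means, colours the dose and time. All 6 columns are highest in irradiated cells at 48 h, and all but TNFRSF11B are lowest in irradiated cells at 30 h.

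Dose was compared at 48 h. In degron (−), 6 of the 17 other family genes rose at 4 Gy and none fell, where 3.85% of all genes tested rose and 0.873% fell (limma, adjusted p under 0.05). They were TNFRSF10B, from 21.1 and 21.6 to 26.2 and 25.5 FPKM (0.26 ± 0.04, adjusted p = 0.00602), TNFRSF10D (0.50), TNFRSF10A (0.42), LTBR (0.51), LTB (0.79) and RELT (0.25). In degron (++), 1 of 17 rose and none fell, where 1.42% and 0.402% of all genes did: TNFRSF10D, from 9.21 and 8.99 to 12.8 and 13.1 FPKM (0.47 ± 0.07, adjusted p = 0.0247). Rescaling moved the share of calls in degron (++) that were higher from 78.0% to 59.6%. The difference of the dose response between the populations was called for none of the 17 and for 0.0772% of all genes, 10 genes in all, with 1758 of 12946 at an unadjusted p under 0.05. In degron (−) 4 or 3 of the 6 calls were left without unirradiated replicate 1 or 2, and 3 or 1 without irradiated replicate 1 or 2. Of the 6 only the call of TNFRSF10B held with each library left out, and rescaling ended it (adjusted p = 0.0605 in limma), as it did those of TNFRSF10A and RELT. The call of TNFRSF10D in degron (++) was lost without any of the 4 libraries. With only the compared libraries in the fit no family gene was called in either population.

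Time was compared at 4 Gy. In degron (−), 5 of the 17 were higher at 48 h than at 30 h and none was lower, where 6.01% of all genes were higher and 1.17% lower. LTBR went from 10.6 and 11.1 to 19.8 and 23.0 FPKM (0.92 ± 0.08, adjusted p = 0.000589 in limma). TNFRSF6B went from 40.7 and 42.8 to 64.7 and 72.7 FPKM (0.70 ± 0.09), and both calls held with each library left out. Those of TNFRSF10A (0.35), TNFRSF10D (0.32) and RELT (0.25) were lost without 3 or 4 of the 4 libraries. Without either 48 h library or 30 h replicate 1, 2 calls were left, and without 30 h replicate 2, 3. With only the compared libraries none was called. In degron (++) none of the 17 was called, where 0.657% of all genes were higher and 0.548% lower, 156 genes in all, with 2050 at an unadjusted p under 0.05. The time response differed between the populations for LTBR, TNFRSF6B, TNFRSF10A and TNFRSF1B, 4 of the 17 beside 3.23% of all genes, each with the lower response in degron (++). That direction was the common one: of the 418 genes called among all tested, 352 had the lower response in degron (++) and 66 the higher. For LTBR, at 81.3 to 84.7 FPKM in all 4 irradiated degron (++) libraries, the call held with each library left out (−0.93 ± 0.11, adjusted p = 0.00719 in limma), and the other 3 calls were lost without 5 to 8 of the 8 libraries, leaving 3 of the 4 without degron (−) replicate 2 at 30 h, 2 without degron (++) replicate 2 or degron (−) replicate 1 at 48 h, and 1 without any other.

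The machinery behind the receptors was described by short lists of pathway genes, also chosen with earlier results of these data known. Of 31 adaptor and NF-κB machinery genes, all tested, 9 were higher and 17 lower in unirradiated degron (++) cells, beside 37.6% and 40.2% of all genes tested. The median log2 difference was −0.32, against −0.02 for all genes. Lowest were NFKBIB, an inhibitor that holds NF-κB in the cytoplasm (38.8 and 42.5 against 189.9 and 182 FPKM, −2.17 ± 0.05), BIRC3, a ubiquitin ligase of the receptor complexes (−2.09 ± 0.09), and TRAF1, an adaptor of TNFRSF1B, CD40 and TNFRSF9 (−1.69 ± 0.08). Highest were TRAF4, an adaptor at cell contacts in epithelia (153 and 156 against 34.9 and 33.6 FPKM, 2.14 ± 0.07), RBCK1, a subunit of the linear ubiquitin ligase (1.04 ± 0.07), and TRAF2, the adaptor shared by many receptors (0.74 ± 0.05). These 6 calls held under every alternative run.

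Of 23 NF-κB target genes tested 6 were higher and 13 lower in unirradiated degron (++) cells, beside the same shares of all genes, with a median of −0.67. The lists overlap: NFKB1, called higher, and BIRC3, NFKB2, NFKBIA, NFKBIE, RELB and TRAF1, called lower, were also counted in the machinery list. CCL2, the monocyte chemokine, was at 5.63 and 2.13 FPKM in degron (++) and at 119 and 124 FPKM in degron (−) (−4.75 ± 0.28, adjusted p = 4.20e-07 in limma), with no overlap. BCL2A1, an inhibitor of apoptosis, was listed at 0 in all degron (++) libraries and was at 18.1 to 29.6 FPKM in degron (−). In the other direction were the cytokine IL6 (19.3 and 16.3 against 4.30 and 4.55 FPKM, 1.79 ± 0.13), TNFAIP2 (1.61 ± 0.07) and the chemokine CXCL2 (1.42 ± 0.25). Of 9 genes of death receptor signalling tested 4 were higher and 2 lower, beside 37.6% and 40.2% of all genes tested. So small a count is read as a description of the named genes only. Higher were the initiator caspase CASP10 at 1.13 ± 0.10, the necroptosis effector MLKL at 1.06 ± 0.09 and the apoptosis protein BID at 1.01 ± 0.05. CASP10 was at a low level, 1.48 and 1.21 against 0.084 and 0.060 FPKM, and passed the filter through degron (++) alone. Lower were XIAP, an inhibitor of caspases, at −0.45 ± 0.07 and DIABLO, which antagonises such inhibitors, at −0.20 ± 0.05. CFLAR, the other gene called higher (0.34), lost its call on rescaling (adjusted p = 0.0524 in limma) and turned to the other sign there in irradiated cells at 48 h.

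Dose was also compared over the pathway lists at 48 h, where most NF-κB target genes were not called in either population. In degron (−) 10 of 23 rose and none fell, beside 3.85% and 0.873% of all genes. They were ICAM1, an adhesion molecule (79.9 and 82.4 to 122 and 122 FPKM, 0.58 ± 0.04, adjusted p = 0.000637 in limma), IL6 (0.92), TRAF1 (0.55), TNFAIP3 (0.48), PTGS2 (0.45), BCL2A1 (0.35), NFKB2 (0.35), RELB (0.33), NFKBIA (0.30) and TNIP1 (0.27). In degron (++) 5 of 23 rose and none fell, beside 1.42% and 0.402% of all genes. They were TNFAIP3, an inhibitor of NF-κB that is itself a target (5.13 and 4.49 to 7.31 and 7.88 FPKM, 0.57 ± 0.07, adjusted p = 0.0140 in limma), BIRC3 (0.53), NFKB2 (0.47), NFKBIA (0.27) and ICAM1 (0.27). The median of the list was 0.30 in degron (−) and 0.27 in degron (++), that of all genes 0.01 and 0.00. Of the adaptor and machinery list 6 of 31 rose in degron (−) and 5 in degron (++). All but RELA (0.17) in degron (−) and MAP3K14 (0.41) in degron (++) are also target genes and were counted above. Of the death receptor signalling list none was called in either population. Of the 10 calls in degron (−) 4 or 3 were left without unirradiated replicate 1 or 2 and 4 or 2 without irradiated replicate 1 or 2, ICAM1 each time. Of the 5 in degron (++) none was left without unirradiated replicate 1 or irradiated replicate 2, and 1 without either of the others. Rescaling left 5 of these 10 and 0 of these 5, and the compared libraries alone 0 and 0. Of the machinery calls 0 to 2 of 6 were left in degron (−) and 0 or 1 of 5 in degron (++), whichever library was left out. No gene of the 3 lists was called for a difference of dose response between the populations.

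Between 30 and 48 h at 4 Gy, 4 of the 23 NF-κB target genes rose in degron (−) and 1 fell, beside 6.01% and 1.17% of all genes. IL6 (0.78), TNFAIP2 (0.34), TNFAIP3 (0.29) and PTGS2 (0.40) rose and CD83 fell by 0.40. Of these 5 calls rescaling left 2 and the compared libraries alone 0. None was left without replicate 1 at 30 h or replicate 2 at 48 h, 1 without replicate 2 at 30 h and 2 without replicate 1 at 48 h. Of the 31 machinery genes 2 rose, TNFAIP3 and TRAF4, and none fell. TRAF4 rose from 26.2 and 27.6 to 38.3 and 46.02 FPKM (0.62 ± 0.07), a call that held with each library left out and was lost with only the compared libraries (adjusted p = 0.0996 in limma). In degron (++) 1 of the 23 targets and 0 of the 31 machinery genes rose and none fell, beside 0.657% and 0.548% of all genes. It was BCL3, an NF-κB cofactor, which rose by 0.50, and the call was lost without any of the 4 libraries and on rescaling.

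**Figure D4:**
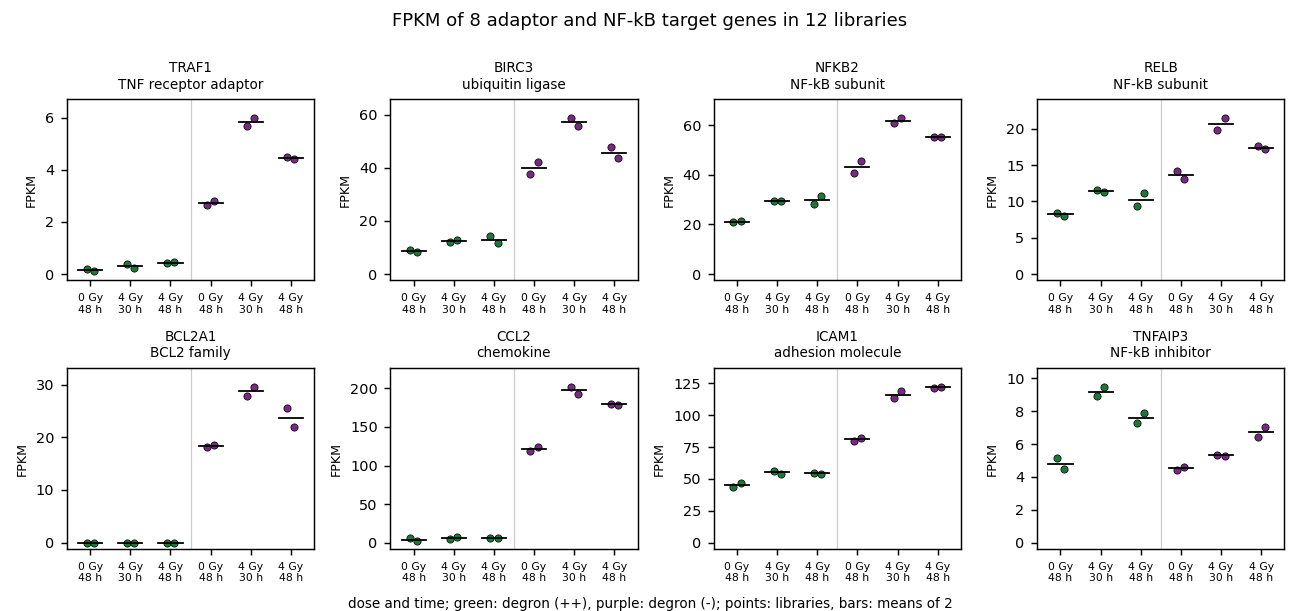
FPKM (y axis, linear, each panel on its own scale from 0) of 8 adaptor and NF-κB target genes in the 12 libraries; points are libraries, bars are means of 2, degron (++) in green on the left and degron (−) in purple on the right. BCL2A1 lies at 0 and CCL2 and TRAF1 lie near 0 in degron (++), while TNFAIP3 reaches higher levels in irradiated degron (++) than in irradiated degron (−) libraries.

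The genes most like TNFRSF11B and CD70 over the 12 libraries were ranked by Pearson's r of log2(FPKM + 1) among 9113 tested genes outside the family and the other gene lists with a mean of at least 5 FPKM. For TNFRSF11B these were OLR1 (r = 0.9974), TIMP2, CLDN1, PAPSS2 and OTUD1, and 132 genes were over 0.99. OLR1, a receptor for oxidised lipoprotein, was at 28.7 to 48.4 FPKM in degron (++) and at 1.48 to 5.11 FPKM in degron (−), and CLDN1, a tight junction protein, at 160 to 195 and 30.5 to 49.7 FPKM. For CD70 they included UPK1B (r = 0.9998), GSTT1, COL5A2 and LRIF1, and 731 genes were over 0.99. UPK1B, a urothelial membrane protein, was at 53.2 to 60.2 FPKM in degron (−) and at most 0.089 FPKM in degron (++), and GSTT1, a glutathione transferase, was listed at 0 in all degron (++) libraries. The 12 libraries form 2 separate populations, and r here mainly repeats that separation.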

How the data were processed

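RNA sequencing of 12 PANC-1 libraries was analysed, 2 in each of 6 groups taken from the labels. The authors deposited FPKM values per gene symbol for each library; their processing notes name TopHat2 2.1.1, Bowtie2 2.2.8, SAMtools 0.1.18, Cuffdiff 2.2.1 and build hg19. Read counts were not used here, so no counting interval is given. The 10 genes and the gene lists were chosen with earlier results of these data known.

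Genes that reached 1 FPKM in 2 or more libraries were tested (12946 genes). limma 3.58.1 in R 4.3.3 was fitted to log2(FPKM + 1) over all 12 libraries with 6 group means and a trended prior; 9 contrasts covered population, dose, time and both interactions, with Benjamini-Hochberg adjustment over all genes and a threshold of 0.05. The script was tested on simulated data. Other calculations used Python 3.11.15. Named were the 10 genes, other tested family genes with a group mean of at least 5 FPKM or a call by dose, time or interaction, the 3 largest calls in each direction of each pathway list at 0 Gy and any called by dose or time, and 5 genes each most like TNFRSF11B and CD70, where 1 of those like CD70 and 1 gene of the death receptor list are not reported here; others are marked as named after their values were seen, and the chromosome 9 genes, CD68 and other markers come from marker lists. TNFRSF18 and TNFRSF19 were named to complete the counts. Alternatives were a pseudocount of 0.1, all genes above 0, a minimum of 5 FPKM, quantile normalization, rescaling to equal sums, an untrended prior, a block for the replicate number, only the compared libraries, and leaving out each library. Gene order and promoter sequences came from RefSeq on GRCh38.p14; no coordinates were converted.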

Additional observations from a re-analysis of the deposited data

Results flagged for a closer look

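The time response at 4 Gy, 48 h against 30 h, differed between the populations by limma's interaction term for 6 genes: 4 of the 17 other family genes, 1 of 31 machinery genes and 2 of 23 NF-κB targets, TNFAIP3 being in both lists, beside 3.23% of all genes. The log2 response in degron (++) minus that in degron (−) was −0.93 for LTBR, −0.85 for TNFRSF6B, −0.58 for TNFRSF1B, −0.51 for TNFRSF10A and −0.54 for TNFAIP3, and 0.68 for BCL3. In each of these but BCL3 the response was higher in degron (−), as it was for 352 of the 418 genes called among all tested. BCL3 was at 11.7 and 11.2 FPKM at 30 h and at 16.6 and 16.7 FPKM at 48 h in degron (++), and at 17.6 and 16.6, then 15.1 and 14.8 FPKM in degron (−). The call of LTBR held with each of the 8 libraries left out. Those of BCL3, TNFRSF6B, TNFAIP3, TNFRSF10A and TNFRSF1B were lost with 4, 5, 7, 7 and 8 of the 8 left out, with adjusted p up to 0.0626, 0.0628, 0.111, 0.139 and 0.152 in limma over all alternatives.

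TNFSF9 stood out for dose at 48 h: both irradiated degron (−) libraries lay above the unirradiated ones and both irradiated degron (++) libraries below theirs, a difference of log2 responses of −0.71 ± 0.13. This difference was not tested, because the gene was picked from these data.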

How the results depend on the processing

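Of the calls of other list genes recomputed under the alternatives, 2375 kept their side of the threshold, 296 lost it and 1 changed sign; of the values of the 9 of the 10 genes that passed the filter, 873 moved by less than the spread between replicates and 153 by more, and in the population contrasts none changed sign. The sign change was that of CFLAR under rescaling, at −0.0034 in irradiated cells at 48 h; the cause was not tested. The counts of called family genes outside the 10 stayed within 1.5 times for the population contrasts. Those of dose in degron (−), time in degron (−) and the time interaction, 6, 5 and 4, became 3, 3 and 3 under rescaling; the time interaction count was 2 under quantile normalization and 2 without trend; with all genes above 0 tested, those counts were 4 for time in degron (−) and 3 for the interaction, with 3 of the 5 and 2 of the 4 calls kept; and with only the libraries compared, and so fewer degrees of freedom, dose gave 0 in degron (++) and 0 in degron (−), time in degron (−) 0 and the time interaction 2. When a library was left out, the counts ranged from 14 to 14, 13 to 16 and 12 to 13 for the populations in unirradiated cells and in irradiated cells at 30 and 48 h, 0 to 0 for dose in degron (++), 1 to 5 for dose in degron (−), 2 to 3 for time in degron (−) and 1 to 3 for the time interaction; a group's lone library was then assumed to vary like the other groups.

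Replicate numbers did not pair the libraries: the correlation of deviations between groups was −0.038 to 0.122, with a median of 0.04 over 15 pairs of groups. With the replicate number as a block, time in degron (−) gave 3 calls in place of 5 and the time interaction 2 in place of 4, and the other family counts stayed within 1.5 times. Depth is unknown, so that values under 1 FPKM, TNFRSF9 and CD40 or CD70 in degron (++) among them, have no stated counting error.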
